A study of Homo sapiens with 28 samples.

Results

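Residual HCT116 tumors from mice that received Palbociclib were compared with Control tumors across all measured genes. The tumors were taken by their labels, which gave 5 Palbociclib tumors and 3 Control tumors, 8 of the 28 RNA-seq libraries in the series. The cell line HCT116 was established from a human colorectal carcinoma, and its cells, carrying luciferase and GFP, were grown as subcutaneous xenografts in male NOD SCID mice, which lack working T and B lymphocytes. Mice were gavaged daily with vehicle (Control) or with Palbociclib, an inhibitor of the cyclin-dependent kinases CDK4 and CDK6. The other tumors had received Telaglenestat, a glutaminase inhibitor, alone (n = 4) or with Palbociclib (n = 4, the combination). A further 12 libraries came from monolayer cultures explanted from tumors of the 4 arms. The paper states that these cultures were kept without drug. Every tumor carried the same single human cell line in a mouse host, and poly(A) RNA was counted on human genes, so stroma and vessels of the host are covered only as far as mouse reads align to human genes. The paper describes injection of the cells on the right flank of the mice. The labels do not say that each tumor came from a separate mouse, and p-values therefore measure the spread between these tumors.

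CDK4 and CDK6, bound to D-type cyclins, phosphorylate the retinoblastoma protein RB, which then releases E2F transcription factors. E2F factors drive genes for S phase, such as those for origin licensing, DNA polymerases and deoxynucleotide synthesis. Genes for mitosis are transcribed later in the cycle through the MuvB complex with B-MYB (MYBL2) and FOXM1, largely through a promoter element called the cell cycle genes homology region (CHR), often with a CCAAT box nearby. When RB stays unphosphorylated both groups of genes are repressed, and cells are held in G1. In bulk tumor RNA, fewer cycling cells and less RNA per cell cannot be told apart.

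Library totals were 7539298 to 8849414 counts in the Control tumors and 6273834 to 10617936 in the Palbociclib tumors. Palbociclib tumor 2 stood apart from the other 4: its slope of log2 expression on gene GC content was 0.0968, against 0.313 to 0.359 in the other Palbociclib tumors and 0.246 to 0.257 in the Control tumors, so the main counts are also given without it. No batch is named in the labels. The epithelial genes EPCAM, CDH1, KRT8, KRT18 and KRT19 were well expressed in all 8 tumors, while VIL1 was at 0 in 5 tumors and CEACAM5 in 7. The summed level of the 15 fibroblast and pericyte markers was 193 to 235 CPM (counts scaled to a common library size) in Control and 143 to 234 in Palbociclib tumors, with LUM at 0 in all 8. The 14 leukocyte markers summed to 16.5 to 21.4 CPM in Control and 23.9 to 34.2 in Palbociclib tumors, none of the 3 that could be tested was called different, and TYROBP, CD3E, MS4A1 and NKG7 were at 0 throughout. The 10 endothelial and red cell markers summed to 1.796 to 3.65 and 1.93 to 4.42 CPM, with CDH5 and HBB at 0. The part of host cells in the results was not tested.

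Of 14848 genes tested with edgeR's quasi-likelihood test, 535 (3.60%) were lower and 379 (2.55%) were higher in the Palbociclib tumors at a Benjamini-Hochberg adjusted p under 0.05. These shares are the background for every gene list that follows. Called or not, 1163 genes tested (7.83%) had every Palbociclib tumor below every Control tumor. Another 881 (5.93%) had every Palbociclib tumor above every Control tumor, so groups without overlap were more common than calls. Levels are given as CPM in the order of Control tumors 1 to 3 and Palbociclib tumors 1 to 5, and changes as log2 fold changes of Palbociclib over Control with their standard error (SE). Over all genes tested the median change was 0.00067 (log2), with an interquartile range of -0.16 to 0.17. Protein-coding genes made up 97.8% of the genes that fell and 92.9% of those that rose, against 85.5% of all genes tested. The median GC content of the longest transcript was 43.0% for the genes that fell, 47.6% for those that rose and 48.0% for all tested. Without Palbociclib tumor 2, 627 genes were lower and 490 higher, and 510 and 342 of the original calls were among them. Leaving out a Control tumor gave smaller counts, which were 373 lower and 191 higher for Control tumor 1, 305 and 189 for Control tumor 2, and 353 and 218 for Control tumor 3.

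Within the pathway that the drug acts on, cyclin D1 rose and several E2F-regulated genes fell. CCND1, which encodes the cyclin D1 partner of CDK4 and CDK6, was at 511, 526 and 518 CPM in the Control tumors and at 1054, 997, 914, 1012 and 1046 CPM in the Palbociclib tumors. Every Palbociclib tumor was above every Control tumor, and the log2 fold change was 0.95 (SE 0.079, adjusted p = 1.64e-06). CCNE2, encoding cyclin E2, the CDK2 partner at the start of S phase, was at 26.5, 23.02 and 27.9 CPM in Control and at 9.63, 10.6, 6.34, 8.07 and 10.7 CPM in Palbociclib tumors. The groups did not overlap, and CCNE2 fell by 1.51 on the log2 scale (SE 0.185, adjusted p = 3.32e-05). E2F8, an atypical E2F that represses transcription late in S phase, was at 17.5, 20.03 and 25.3 CPM in Control and at 8.97, 8.94, 8.16, 8.63 and 7.25 CPM in Palbociclib tumors. The Palbociclib tumors were close to each other and all below Control, with a log2 fold change of -1.31 (SE 0.183, adjusted p = 0.000116). CDKN2C, encoding the CDK4/6 inhibitor p18, was at 7.07, 5.87 and 6.45 CPM in Control and at 1.89, 3.81, 2.58, 2.13 and 1.58 CPM in Palbociclib tumors (log2 fold change -1.43, SE 0.347, adjusted p = 0.0146). Its groups did not overlap, but the call was lost without Control tumor 1 or Control tumor 3. CDKN2B, encoding the related inhibitor p15, was at 13.5, 11.6 and 7.75 CPM in Control and at 14.8, 22.5, 17.7, 13.3 and 18.8 CPM in Palbociclib tumors, with a log2 fold change of 0.66 (SE 0.187, adjusted p = 0.0393). These groups overlapped, and the call was lost when Control tumor 2 or 3 or Palbociclib tumor 2, 3 or 5 was left out.

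The targets of the drug and several regulators of the same pathway did not pass the test. CDK4 was at 157, 178 and 169 CPM in Control and at 174, 141, 158, 146 and 171 CPM in Palbociclib tumors, with a log2 fold change of -0.09 (SE 0.0882, adjusted p = 0.696) and overlapping groups. CDK6 was at 13.6, 39.6 and 18.6 CPM in Control and between 35.5 and 40.9 CPM in Palbociclib tumors (log2 fold change 0.69, SE 0.212, adjusted p = 0.0591). Control tumor 2 lay within the range of the Palbociclib tumors, and CDK6 passed the test when that tumor was left out. CDK6 also passed with DESeq2, with no filter on low counts and with at least 10 counts in every library. It passed as well in both fits with a block for replicate number, so 6 of 17 alternatives called it. RB1, encoding RB, was at -0.27 on the log2 scale (adjusted p = 0.114) and at -0.31 without Palbociclib tumor 2, where it passed (adjusted p = 0.0445). For the other regulators named, E2F1 was at -0.50 (adjusted p = 0.174) and CCNE1, encoding cyclin E1, at 0.28 (adjusted p = 0.171). CDKN1A, encoding the CDK inhibitor p21, was at 147, 153 and 162 CPM in Control and at 139, 100, 134, 118 and 128 CPM in Palbociclib tumors, with a log2 fold change of -0.31 (SE 0.101, adjusted p = 0.0706). All 5 Palbociclib values of CDKN1A were below the Control values, as in 7.83% of all genes tested. The test was passed without Palbociclib tumor 1. CDKN1A also passed with no filter on low counts, with at least 10 counts in every library and with a GC content and length offset. Of the 29 tested genes of the CDK4/6-RB-E2F axis, 10 were lower and 2 higher (34.5% and 6.90%), with a median log2 fold change of -0.20. Leaving out Control tumor 2 gave 6 lower genes, and leaving out Palbociclib tumor 2 gave 11 lower and 1 higher.

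**Figure D1:**
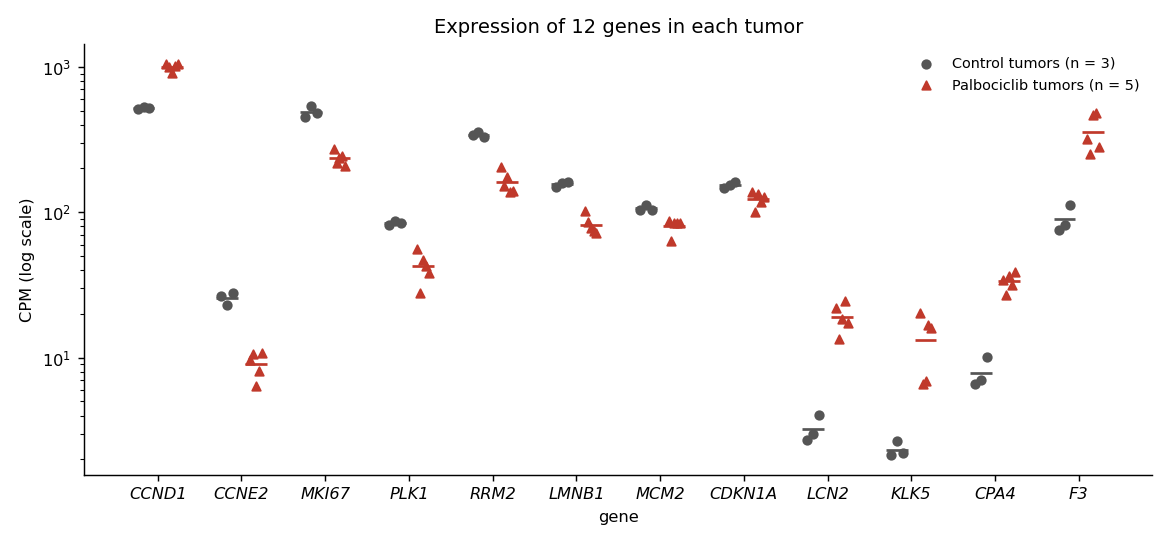
Level of 12 genes (CPM, log axis) in the 3 Control tumors (grey circles) and the 5 Palbociclib tumors (red triangles), 1 point per tumor with a line at each group mean. CCND1 in the Palbociclib tumors sits between 914 and 1054 CPM, above all Control tumors, while MKI67 and RRM2 sit below all Control tumors.

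Genes for DNA replication and repair were lower as groups, and none of their members was called higher. Of 27 genes for origin licensing and the replicative helicase, 13 fell (48.1%), of 36 replication fork genes 19 fell (52.8%), of 17 genes for deoxynucleotide supply 6 fell (35.3%) and of 31 genes for homologous recombination and the Fanconi pathway 14 fell (45.2%), against 3.60% of all genes. Their median log2 fold changes were -0.41, -0.42, -0.27 and -0.41. RRM2, encoding the regulated subunit of ribonucleotide reductase, was at 340, 356 and 329 CPM in Control and at 204, 151, 174, 138 and 141 CPM in Palbociclib tumors. The groups were far apart, and RRM2 fell by 1.08 on the log2 scale (SE 0.123, adjusted p = 1.5e-05). GMNN, encoding geminin, which blocks relicensing of origins, was at 27.96, 29.3 and 30.3 CPM in Control and at 17.1, 12.8, 12.3, 9.53 and 13.6 CPM in Palbociclib tumors (log2 fold change -1.16, SE 0.161, adjusted p = 0.000112). Palbociclib tumor 1 had the highest of the 5 values and tumor 4 the lowest, and none reached the Control level.

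MCM2, a subunit of the MCM2-7 helicase, was at 103, 113 and 104 CPM in Control and at 86.5, 63.1, 83.8, 84.6 and 84.4 CPM in Palbociclib tumors, with a log2 fold change of -0.41 (SE 0.108, adjusted p = 0.0274). The groups did not overlap, Palbociclib tumor 2 was the lowest, and the call was lost without any 1 of the 3 Control tumors. GINS2, a GINS subunit of the active helicase, fell by 0.97 on the log2 scale and MCM10, needed to start unwinding, fell by 0.74 (adjusted p = 7.16e-05 and 0.00184). The licensing factors CDC6 and CDT1 were at log2 fold changes of -0.24 and -0.61 and did not pass (adjusted p = 0.262 and 0.128). PRIM1, the primase subunit, and POLE2, a subunit of DNA polymerase epsilon, fell by 0.94 and 0.80 (adjusted p = 0.000304 and 0.00422). PCNA, the sliding clamp, fell by 0.73 (adjusted p = 1.08e-05), and TYMS, which makes dTMP, fell by 0.81 (adjusted p = 1.6e-05). BRIP1, a helicase partner of BRCA1, was at 61.0, 53.7 and 52.0 CPM in Control and at 31.3, 29.1, 32.4, 28.7 and 31.9 CPM in Palbociclib tumors, with a log2 fold change of -0.86 (SE 0.0909, adjusted p = 7.32e-06). The 5 Palbociclib tumors were close to each other and all below Control. Leaving out Control tumor 2 lowered the count of origin genes to 6 and leaving out Palbociclib tumor 2 to 12, while the replication fork count was 14 to 20 with any 1 tumor left out.

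The 4 lists with the largest shares of lower genes were those for mitosis. Of 33 genes for spindle motors and cytokinesis, 31 fell (93.9%), and of 26 genes for condensins and chromosome structure 23 fell (88.5%). Of 30 genes for mitotic kinases, cyclins and the checkpoint 26 fell (86.7%), and of 38 genes for the kinetochore and centromere 21 fell (55.3%). No gene of these 4 lists was called higher, and their median log2 fold changes were -0.78, -0.60, -0.71 and -0.61. With any 1 tumor left out, 25 to 30 of the spindle genes, 19 to 24 of the condensin genes, 21 to 27 of the mitotic kinase genes and 16 to 23 of the kinetochore genes were lower, and without Palbociclib tumor 2 the counts were 29, 23, 27 and 23.

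MKI67, encoding the proliferation marker Ki-67, was at 450, 538 and 480 CPM in Control and at 274, 219, 235, 244 and 210 CPM in Palbociclib tumors. Each Palbociclib tumor was below each Control tumor, and MKI67 fell by 1.05 on the log2 scale (SE 0.115, adjusted p = 1e-05). In tumor sections, the paper found no change with Palbociclib alone in the share of Ki-67-positive cells or in mitotic counts. Those measures were not set against the RNA values here. KIF20A, encoding a kinesin of cytokinesis, was at 94.9, 91.5 and 101 CPM in Control and at 49.2, 33.1, 36.7, 36.8 and 32.3 CPM in Palbociclib tumors (log2 fold change -1.34, SE 0.151, adjusted p = 1.42e-05). Palbociclib tumor 1 was nearest to Control, and the groups did not overlap. HMGB2, a chromatin protein of dividing cells, was at 223, 241 and 231 CPM in Control and at 112, 91.5, 114, 94.8 and 86.9 CPM in Palbociclib tumors (log2 fold change -1.21, SE 0.121, adjusted p = 4.55e-06). PLK1, encoding the mitotic Polo-like kinase, was at 82.0, 86.9 and 84.9 CPM in Control and at 56.3, 27.7, 46.9, 42.4 and 38.5 CPM in Palbociclib tumors (log2 fold change -0.99, SE 0.145, adjusted p = 0.000195). Among the Palbociclib tumors PLK1 was lowest in tumor 2 and highest in tumor 1, and all 5 were below Control. CCNB1, encoding cyclin B1, was at 180, 188 and 201 CPM in Control and at 129, 114, 104, 96.2 and 91.9 CPM in Palbociclib tumors, with a log2 fold change of -0.82 (SE 0.136, adjusted p = 0.000573). SPC25 and NDC80, kinetochore subunits that bind microtubules, fell by 1.15 and 1.03 (adjusted p = 0.000144 and 7.2e-05). AURKB, the kinase of the chromosomal passenger complex, fell by 1.03 (adjusted p = 0.000341), and TOP2A, which untangles sister chromatids, fell by 0.91 (adjusted p = 5.37e-05).

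The tumors differed in how far these lists moved. The mean deviation of the spindle list from the Control mean was -0.53 on the log2 scale in Palbociclib tumor 1, -0.93 in tumor 2, -0.64 in tumor 3, -0.82 in tumor 4 and -0.95 in tumor 5. Palbociclib tumor 1 was also the least changed for the kinetochore, condensin and mitotic kinase lists (-0.41, -0.49 and -0.46). The Control tumors lay between -0.04 and 0.04 for these lists.

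**Figure D2:**
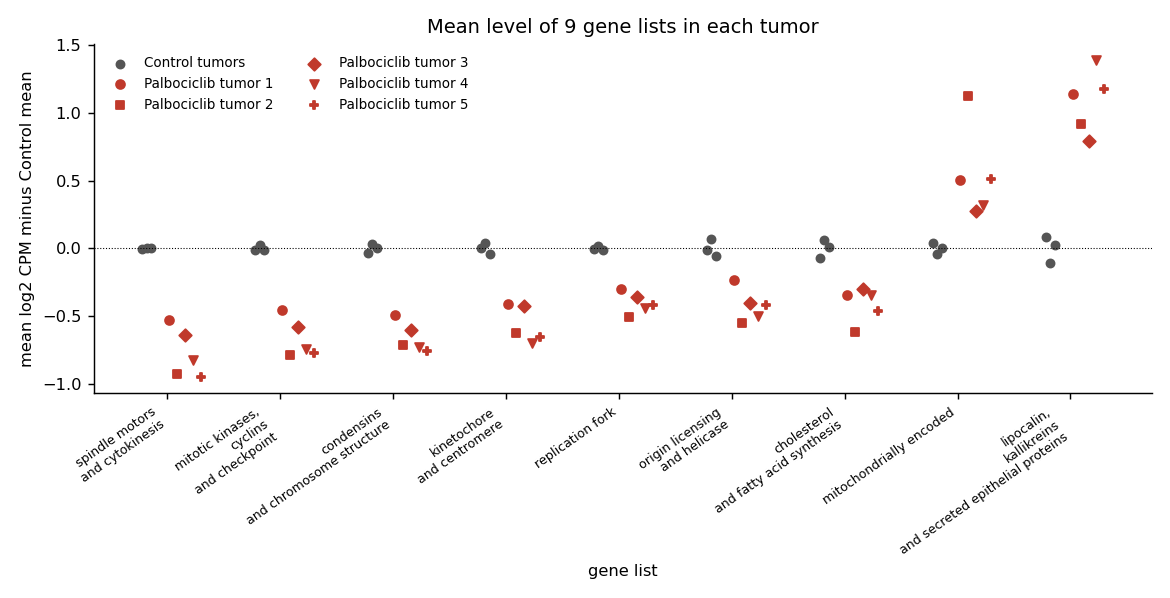
Mean log2 CPM of 9 gene lists minus the Control mean, with Control tumors as grey circles and each Palbociclib tumor as a red symbol of its own. For the spindle list the Palbociclib tumors range from -0.95 to -0.53, and Palbociclib tumor 1 is the nearest to Control.

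The regulators of the mitotic genes were partly lower themselves. FOXM1 was at 112, 127 and 120 CPM in Control and at 70.0, 40.2, 68.5, 53.02 and 51.7 CPM in Palbociclib tumors, with a log2 fold change of -1.07 (SE 0.173, adjusted p = 0.000478) and no overlap. MYBL2 was at 48.1, 63.3 and 53.6 CPM in Control and at 43.7, 16.3, 33.9, 25.2 and 28.7 CPM in Palbociclib tumors (log2 fold change -0.89, SE 0.203, adjusted p = 0.00983). The groups did not overlap, but the MYBL2 call was lost without Control tumor 2. LIN52, a MuvB subunit, fell by 0.68 (adjusted p = 0.0126), a call lost without Control tumor 2 or Control tumor 3. The MuvB subunits LIN9 and LIN54 were at log2 fold changes of 0.02 and -0.08 and did not pass (adjusted p = 0.973 and 0.795). Of the 8 genes of this list 3 were lower, and 1 was lower without Control tumor 2.

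Promoter sequence was read for the genes that fell, since the genes of the spindle and replication lists are known to be controlled through different elements. The 4 promoters shown are MKI67, PLK1, CCNB1 and RRM2, each the 150 bases before the RefSeq transcription start on build GRCh38.p14, with CHR elements (TTTGAA or TTCGAA) and CCAAT boxes in capitals on either strand. MKI67 (chr10:128126424-128126573, minus strand), PLK1 (chr16:23678739-23678888, plus strand), CCNB1 (chr5:69167000-69167149, plus strand) and RRM2 (chr2:10122589-10122738, plus strand) were chosen because their transcripts all fell and their matches to these letters differ.
MKI67: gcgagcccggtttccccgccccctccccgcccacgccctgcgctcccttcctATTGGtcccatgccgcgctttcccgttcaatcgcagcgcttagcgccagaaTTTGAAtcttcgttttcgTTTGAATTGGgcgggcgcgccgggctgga
PLK1: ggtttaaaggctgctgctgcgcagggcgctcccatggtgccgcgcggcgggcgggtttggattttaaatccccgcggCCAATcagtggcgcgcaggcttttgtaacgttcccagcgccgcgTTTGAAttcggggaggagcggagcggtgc
CCNB1: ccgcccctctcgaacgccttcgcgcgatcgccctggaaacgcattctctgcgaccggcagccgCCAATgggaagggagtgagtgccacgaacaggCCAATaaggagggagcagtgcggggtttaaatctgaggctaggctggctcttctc
RRM2: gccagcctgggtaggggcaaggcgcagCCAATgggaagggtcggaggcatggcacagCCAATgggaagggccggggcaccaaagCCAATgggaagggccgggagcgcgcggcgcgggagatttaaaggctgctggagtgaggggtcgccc

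The MKI67 window held CHR letters starting at -47 and -29 relative to the start, and CCAAT on the reverse strand at -98 and -24, the last sharing 1 base with the second CHR. PLK1 held CCAAT at -73 and a CHR at -29. CCNB1 held CCAAT at -87 and -55 and RRM2 held CCAAT at -123, -93 and -66. Neither held TTTGAA or TTCGAA in the window searched, and no other form of the CHR was searched. A window of 250 bases before to 50 after the start was then searched for CHR, CCAAT and E2F letters (TTTCCCGC or TTTGGCGC) on both strands. CHR letters stood in 10.9% of 10219 promoters of tested protein-coding genes, in 25.8% of the 438 promoters of those that fell and in 38.6% of the 189 promoters of those that fell at least 1.5-fold. CHR and CCAAT together stood in 4.67%, 18.5% and 29.1% of these sets, and E2F letters in 3.74%, 11.0% and 10.6%.

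The lists differed in which letters they held. These shares count all tested members of a list, whether or not they fell. They describe the lists and are not a result of the tumor values. Of 31 spindle promoters, 26 held CHR letters (83.9%), 25 held CCAAT (80.6%) and 2 held E2F letters (6.45%). Of 23 condensin promoters 15 held CHR letters (65.2%) and 1 held E2F letters, and of 31 kinetochore promoters 17 held CHR letters (54.8%) and 3 held E2F letters. Of 23 origin licensing promoters, 2 held CHR letters (8.70%) and 10 held E2F letters (43.5%). Of 30 replication fork promoters, 0 held CHR letters and 9 held E2F letters (30.0%). Promoters were found for 76.7% of the mitotic kinase genes and 74.1% of the protein-coding genes that rose, too few for the check, which is void for both. A match is a description of the letters only, and a window without a match says only that those letters are absent from it.

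Among the genes that rose, the list with the largest share was that of secreted and epithelial proteins: 13 of 17 tested genes in the list of lipocalin, kallikreins and secreted epithelial proteins were higher (76.5%, against 2.55% of all genes), 0 were lower, and the list median was 0.99. This list was drawn up from earlier results of these tumors, so the count is not independent evidence. It holds 37 genes, and only these 17 passed the filter on low counts. The filter can keep a gene through the tumors in which it is high, so the share does not describe all 37. With at least 10 counts required in every library, 9 were higher. LCN2, encoding lipocalin-2, a secreted iron-siderophore binding protein, was at 2.69, 2.99 and 4.00 CPM in Control and at 22.1, 13.4, 18.6, 24.7 and 17.2 CPM in Palbociclib tumors. Tumor 2 was the lowest of the Palbociclib tumors and still above every Control tumor, and the log2 fold change was 2.58 (SE 0.343, adjusted p = 6.78e-05). KLK5, encoding a secreted serine protease, was at 2.13, 2.66 and 2.19 CPM in Control and at 20.3, 6.57, 6.87, 16.7 and 16.1 CPM in Palbociclib tumors (log2 fold change 2.51, SE 0.472, adjusted p = 0.00189). Tumors 2 and 3 were well below the other 3 Palbociclib tumors, and all 5 were above Control. Of its kallikrein neighbours on chromosome 19, KLK10 and KLK7 both rose by 0.99 (adjusted p = 2.72e-05 and 0.00038), KLK6 by 0.71 and KLK8 by 0.67 (adjusted p = 0.00781 and 0.0447), whereas KLK11 at 1.39 and KLK13 at 0.41 did not pass (adjusted p = 0.135 and 0.759). C3, the central complement component, was at 8.53, 6.97 and 9.04 CPM in Control and at 21.0, 21.7, 19.2, 36.3 and 27.9 CPM in Palbociclib tumors (log2 fold change 1.62, SE 0.3, adjusted p = 0.00162). Of these genes 9 were higher with Control tumor 1 left out and 12 with Palbociclib tumor 2 left out.

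Other genes with a large rise came from several families. CPA4, encoding a secreted carboxypeptidase, was at 6.62, 6.97 and 10.1 CPM in Control and at 34.4, 26.8, 36.4, 31.5 and 39.1 CPM in Palbociclib tumors (log2 fold change 2.10, SE 0.19, adjusted p = 3.5e-06). F3, encoding tissue factor, which starts blood clotting, was at 75.1, 81.8 and 112 CPM in Control and at 318, 252, 464, 479 and 283 CPM in Palbociclib tumors (log2 fold change 2.00, SE 0.236, adjusted p = 2.22e-05). In both genes the lowest Palbociclib tumor was tumor 2. The rule that named the largest rises and falls kept only genes whose groups did not overlap, so the gap between the groups is not a result for them. SLPI, a secreted inhibitor of serine proteases, rose by 1.98, APOL3, an apolipoprotein L family member, by 1.98 and CR2, encoding complement receptor 2, by 1.73 (adjusted p = 0.00674, 4.78e-05 and 0.000478). CALB1, encoding the calcium buffer calbindin, rose by 2.19 (adjusted p = 0.0148), a call lost without Control tumor 1 or Control tumor 2. MUC13, CCL28, IL1RN and NRP2 rose by 1.64 to 1.796 with adjusted p between 0.0273 and 0.0468, and each call was lost without Control tumor 1, without Control tumor 2 and without further single tumors (4 to 7 of the 8 tumors, by gene). Among the largest falls outside the cell cycle lists, GK, encoding glycerol kinase, was at 6.62, 5.64 and 4.00 CPM in Control and between 1.10 and 2.74 CPM in Palbociclib tumors (log2 fold change -1.57, SE 0.325, adjusted p = 0.00444). The DNA helicase gene PIF1 fell by 1.62 and DHRS2, encoding a short-chain reductase, fell by 1.40 (adjusted p = 0.00211 and 0.00221). GJA1, encoding the gap junction protein connexin 43, fell by 1.94 (adjusted p = 0.00602), a call lost without Control tumor 3, ITGA9, encoding an integrin, fell by 1.47 (adjusted p = 0.016), lost without Control tumor 1 or Control tumor 2, and TMSB15A, encoding an actin-binding thymosin, fell by 1.42 (adjusted p = 0.00649), lost without Control tumor 2.

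Of the 19 tested senescence-associated secreted factors, 5 were higher (26.3%) and 1 lower, with a median of 0.20. The list holds 33 genes. The filter can keep a gene through the tumors in which it is high, so the share does not describe all 33. Without Palbociclib tumor 2, 4 were higher, and 3 with all 28 libraries in 1 fit. MMP7, encoding matrilysin, was at 22.6, 35.7 and 40.4 CPM in Control and at 82.6, 102, 95.0, 88.0 and 72.5 CPM in Palbociclib tumors (log2 fold change 1.43, SE 0.156, adjusted p = 1e-05). All 5 Palbociclib tumors were above Control. PLAU, encoding the urokinase protease, rose by 0.84 (adjusted p = 0.000209), and IGFBP3 and ICAM1 rose by 0.78 and 0.80 (adjusted p = 0.0066 and 0.0365). EREG, encoding the EGFR ligand epiregulin, fell by 0.43 (adjusted p = 0.027), a call lost when Control tumor 1 or 2 or Palbociclib tumor 1, 4 or 5 was left out. LMNB1, encoding the lamin B1 of the nuclear lamina, was at 149, 160 and 162 CPM in Control and at 102, 85.3, 77.7, 74.7 and 71.6 CPM in Palbociclib tumors (log2 fold change -0.93, SE 0.12, adjusted p = 5.13e-05), without overlap. LMNB1 was counted above in the list for condensins and chromosome structure and is not in this list. CXCL8 was at a log2 fold change of -0.18 (adjusted p = 0.848) and IL6 was at 0 in all 8 tumors.

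Epithelial genes moved in both directions. Of 36 keratin and junction genes, 8 were higher (22.2%) and 3 lower (8.33%), and 5 were higher without Control tumor 1 and 10 without Palbociclib tumor 2. KRT5, a basal keratin, was at 26.6, 39.4 and 62.0 CPM in Control and at 119, 92.8, 92.8, 207 and 137 CPM in Palbociclib tumors (log2 fold change 1.61, SE 0.31, adjusted p = 0.00231). KRT7 rose by 1.55 and KRT18 by 0.58 (adjusted p = 0.00012 and 0.00122), while the desmosomal cadherin gene DSC2 fell by 0.52 (adjusted p = 0.00576), a call lost without Control tumor 2. Among 28 mesenchymal transition genes 4 were higher (14.3%), 0 without Control tumor 1 and 6 without Palbociclib tumor 2. VIM, encoding vimentin, was at 34.6, 33.5 and 29.9 CPM in Control and at 37.7, 72.3, 235, 47.4 and 48.7 CPM in Palbociclib tumors, and did not pass (log2 fold change 1.44, SE 0.476, adjusted p = 0.0838). Palbociclib tumor 3 stood far above the other 4 for VIM. DUSP4, encoding a phosphatase induced by ERK signalling that inactivates ERK, was at 167, 168 and 155 CPM in Control and at 269, 314, 282, 299 and 290 CPM in Palbociclib tumors (log2 fold change 0.83, SE 0.0764, adjusted p = 3.5e-06), without overlap. Of the 36 genes of the EGFR family and MAPK output, 2 were higher (5.56%) and 1 lower (2.78%), and CCND1 is 1 of the 2. Without Palbociclib tumor 2, 3 were higher, and the 1 lower gene is EREG. Of 40 interferon response and antigen presentation genes 5 were higher (12.5%) and 0 lower, with 2 higher without Control tumor 2, and 6 higher and 1 lower without Palbociclib tumor 2: OAS2, encoding a synthetase activated by double-stranded RNA, rose by 1.45 and BST2, encoding tetherin, by 0.48 (adjusted p = 0.00648 and 0.000516), and OAS2 lost its call without Control tumor 2.

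Among the metabolic lists, the one with the largest share of lower genes was cholesterol synthesis. Of 33 genes for cholesterol and fatty acid synthesis, 15 fell (45.5%) and 0 rose, with a median of -0.38. INSIG1, which holds the sterol regulator SCAP in the endoplasmic reticulum, was at 103, 122 and 102 CPM in Control and at 66.7, 59.5, 58.2, 66.5 and 61.0 CPM in Palbociclib tumors (log2 fold change -0.80, SE 0.101, adjusted p = 3.94e-05). HMGCS1, an early enzyme of the pathway, was at 223, 246 and 255 CPM in Control and at 166, 153, 164, 166 and 149 CPM in Palbociclib tumors (log2 fold change -0.59, SE 0.078, adjusted p = 6.25e-05). In both genes the Palbociclib tumors lay close together and below every Control tumor. FDPS, which makes farnesyl diphosphate, fell by 0.56 (adjusted p = 0.000148). SREBF2, encoding a transcription factor of sterol synthesis genes, was at -0.23 and did not pass (adjusted p = 0.259). The count was 9 without Control tumor 2, 14 without Palbociclib tumor 2, and 5 when all 28 libraries were fitted together.

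Genes for glutamine and glutamate handling, the pathway that Telaglenestat acts on, gave calls in both directions: 3 of 27 were higher (11.1%), 2 lower (7.41%), and 0 were higher without Control tumor 2. GLUL, encoding glutamine synthetase, was at 204, 214 and 198 CPM in Control and at 151, 163, 141, 159 and 153 CPM in Palbociclib tumors (log2 fold change -0.42, SE 0.0712, adjusted p = 0.000696), without overlap. SLC2A1, encoding the glucose transporter GLUT1, rose by 0.39 (adjusted p = 0.0036), and it was the 1 gene called higher of 27 for glycolysis and the pentose phosphate pathway, where 1 was also lower, and 2 were higher without Palbociclib tumor 2 or 5 and 0 lower when Control tumor 2 or 3 or Palbociclib tumor 5 was left out. Of 33 TCA cycle genes 1 was lower and 0 were higher, and 0 were lower when any 1 of the 3 Control tumors or Palbociclib tumor 3 or 5 was left out. MYC was at 169, 198 and 202 CPM in Control and between 195 and 231 CPM in Palbociclib tumors, with overlapping groups (log2 fold change 0.17, SE 0.104, adjusted p = 0.433).

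Mitochondrially encoded transcripts were higher: 8 of 13 passed the test (61.5%), 0 were lower, and the median was 0.55. MT-ND1, a complex I subunit, was at 2531, 2388 and 2513 CPM in Control and at 4063, 5664, 3258, 3405 and 3890 CPM in Palbociclib tumors (log2 fold change 0.71, SE 0.159, adjusted p = 0.00805). All 5 Palbociclib tumors were above Control and tumor 2 was the highest, and the MT-ND1 call was lost without Control tumor 2. The share of all counts on the 13 genes was 6.08%, 5.58% and 5.79% in Control and 7.88%, 11.4%, 6.73%, 6.79% and 7.89% in Palbociclib tumors. With Control tumor 2 left out 0 were called higher, and with Palbociclib tumor 2 left out 7. The part of tumor 2's GC slope in this result was not tested.

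The contrast of combination tumors with Telaglenestat tumors also sets Palbociclib against no Palbociclib, and it shares no tumor with the Control and Palbociclib groups, although all 16 tumors shared 1 estimate of the spread. In it 1468 of 14848 genes (9.89%) were lower and 1326 (8.93%) were higher. Of the 535 genes lower with Palbociclib alone, 431 were also lower here (80.6% of the 535 and 29.4% of the 1468), and of the 379 higher genes 278 were also higher (73.4% and 21.0%). The 535 genes had a median log2 fold change of -0.54 in both contrasts, and the 379 genes 0.50 and 0.49. The GC slope was -0.385 to -0.300 in the Telaglenestat tumors and -0.283 to -0.161 in the combination tumors. With a GC content and length offset, 1060 genes were lower and 1237 higher in this contrast, and 612 and 561 in Palbociclib against Control tumors. The part of GC content in the shared calls was not tested. CCND1 was at 0.95 in the first and 1.09 in the second contrast, CCNE2 at -1.51 and -1.38, MKI67 at -1.05 and -1.30, and LCN2 at 2.58 and 2.52. INSIG1 was at -0.80 and -0.29 and FDPS at -0.56 and -0.09, and 5 of the 33 cholesterol genes were lower with the combination. No test of the difference is given here for INSIG1, FDPS or the cholesterol list, so these values do not show that the contrasts differ. Genes called in opposite directions were MSMO1, a sterol oxidase, at -0.38 and 0.28, and RIC1 at 0.30 and -0.25, both named after their values were seen. The test of the difference between the contrasts called 0 of 22 genes picked for it and 10 of all 14848, and 0 of the 22 had an unadjusted p under 0.05. MMP7, outside the 22 and picked from those 10, was at 1.43 and 2.58 (adjusted p = 0.0483 for the difference).

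The same genes were then read in cultures grown from such tumors. No drug was present in these cultures, so they compare the past treatment of the tumor of origin. In 3 cultures from Palbociclib tumors against 3 from Control tumors, edgeR called 0 of 13985 genes in either direction, DESeq2 also called 0, 592 genes (4.23%) had an unadjusted p under 0.05 and the smallest adjusted p was 0.795. The 532 lower genes that could be tested in cultures had a median log2 fold change of 0.10, and 146 of them had the same sign, and the 354 higher genes had a median of -0.0090, with 169 of the same sign. MKI67 was at a log2 fold change of -0.02 in the cultures (SE 0.141), CCND1 at -0.08 (SE 0.106) and CCNE2 at 0.17 (SE 0.161). In 1 fit of all 28 libraries, the change from Control to Palbociclib was compared between the tumors and the drug-free cultures. It differed for 8 of the 22 genes picked for this test, MKI67, TOP2A, CDK1, CCNB1, CCNE2, RRM2, CCND1 and LMNB1. Of 15466 genes, 160 had a lower and 55 a higher change in the tumors. For MYBL2, FOXM1, PLK1 and LCN2 the difference did not pass (adjusted p = 0.82, 0.306, 0.112 and 0.291).

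**Figure D3:**
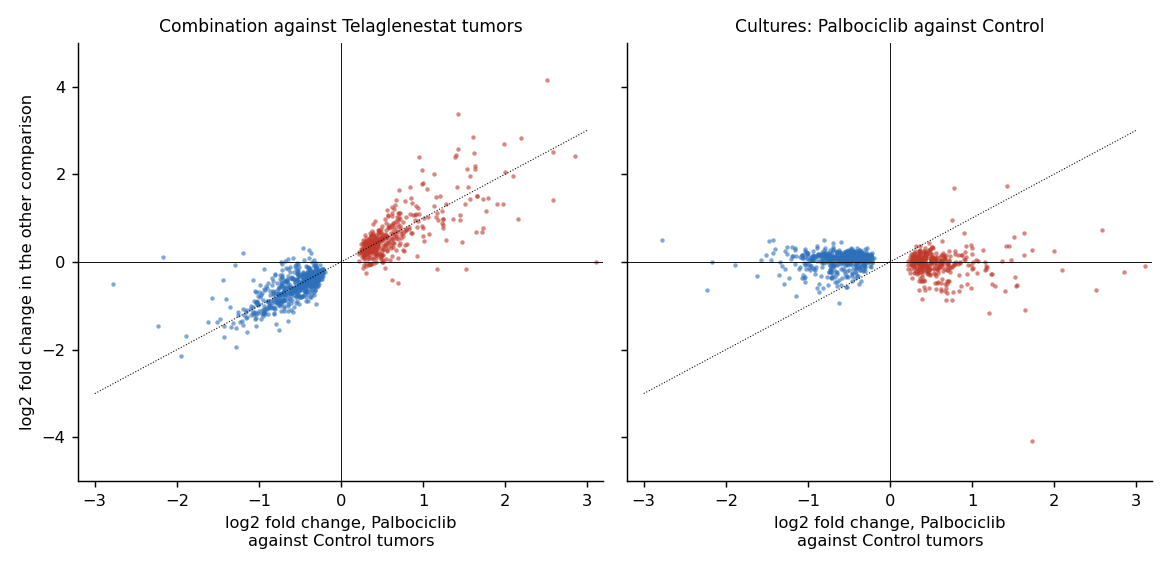
Log2 fold change of each gene called lower (blue) or higher (red) in Palbociclib against Control tumors (horizontal axes), set against combination over Telaglenestat tumors (left) and cultures from Palbociclib over cultures from Control tumors (right); the dotted line marks equal values. The lower genes have a median of -0.54 on both axes at left, and of 0.10 in the cultures at right.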

How the data were processed

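Poly(A) RNA of 16 tumors and 12 cultures was sequenced (NEBNext Ultra libraries). The authors deposited raw counts per gene; the submitters' processing notes name CASAVA 1.8, STAR and hg38, and the annotation release and strand setting of counting are not given in the sources used here. Of 58278 counted genes, 57940 matched GENCODE release 29, from which gene types, GC content and positions were read, and promoters were taken from RefSeq (GRCh38.p14). Of 106 genes named by rule, 10 overlap another annotated gene on the same strand and 34 on the opposite strand, and reads of overlapping genes may not be told apart.

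Genes were filtered with filterByExpr (minimum count 10), scaled by TMM and fitted with edgeR 4.0.16 (R 4.3.3) as 4 tumor groups, by the quasi-likelihood test with Benjamini-Hochberg adjustment over all genes tested and a threshold of 0.05. SE is the log2 fold change divided by the root of the F statistic, and CPM used TMM library sizes. The cultures were fitted alone, and the difference between tumors and cultures on all 28 libraries. The fit was tested on simulated data. DESeq2 1.42.0, the tool of the study, other filters and scalings, a GC content and length offset, the replicate block and leaving out each tumor were tried as alternatives. No pair among the 8 Control and Palbociclib tumors agreed within sampling noise. Counts limit precision most for genes of a few CPM.

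Named genes were 22 anchor genes, up to 3 members per list and direction with the largest change, and the 12 largest falls and rises. These falls and rises were taken from called protein-coding genes with a mean log2 CPM of at least 1 and no overlap between the groups. Others, such as the kallikreins beyond KLK5 and the cholesterol enzymes beyond INSIG1, LSS and STARD4, were named after their values were seen. Members and lists were chosen with earlier results of these data known. Some genes that the rule names are not reported here.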

Additional observations from a re-analysis of the deposited data

Results flagged for a closer look

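Of 139 sets of 5 Palbociclib values, 8 had 1 tumor far from the other 4 (gap over range above 0.71), and chance flags about 1 in 20. In Palbociclib tumor 2, MCM2 was low at 63.1 CPM, KRT18 was low at 986 CPM, MT-ND6 was high at 2544 CPM, the mean deviation of the mitochondrially encoded list was high at 1.12, and the GC slope was low at 0.0968. NDC80 was low in Palbociclib tumor 5 at 20.2 CPM, and KIF20A was high in Palbociclib tumor 1 at 49.2 CPM. The mean deviation of the glutamine and glutamate list was high in Palbociclib tumor 1 at 0.10.

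The change from Control to Palbociclib differed between tumors and drug-free cultures for 8 of 22 genes. The test was edgeR's quasi-likelihood test of the difference (log2, tumors minus cultures). The difference was -1.04 for MKI67 (SE 0.2, adjusted p = 0.0057), -1.05 for TOP2A (SE 0.18, adjusted p = 0.00246) and -0.99 for CDK1 (SE 0.23, adjusted p = 0.0254). It was -1.02 for CCNB1 (SE 0.24, adjusted p = 0.0312), -1.69 for CCNE2 (SE 0.26, adjusted p = 0.000905) and -1.17 for RRM2 (SE 0.24, adjusted p = 0.00989). For CCND1 it was 1.02 (SE 0.13, adjusted p = 0.000167), and for LMNB1 -1.04 (SE 0.2, adjusted p = 0.00597). The CCNB1 difference no longer passed when any 1 of the 3 Control tumors, Palbociclib tumor 4 or 5, culture Control replicate 1 or 3, or any 1 of the 3 Palbociclib cultures was left out. The CDK1 difference no longer passed without any 1 of the 3 Control tumors, culture Control replicate 1 or 3, or culture Palbociclib replicate 1 or 3, and the RRM2 difference without culture Control replicate 3.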

How the results depend on the processing

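No named gene changed sign under any alternative. For list medians only the size of the shift was recorded, not a change of sign. Of 99 named genes that passed the test, 99 kept their sign and 56 passed under each alternative in which they were tested (16 or 17 by gene), and 60 in every fit that left out 1 tumor. Of 526 list medians under alternatives, 516 moved by less than 1 SD between tumors. Counts of calls moved more than the directions of named genes. The number of lower genes was 348 with all 28 libraries in 1 fit and 305 to 627 with 1 tumor left out. The number of higher genes was 601 with DESeq2, 614 with no filter on low counts, 165 with all 28 libraries and 189 to 490 with 1 tumor left out. In the combination contrast 699 genes were higher with all 28 libraries in 1 fit. In the cultures, no filter gave 110 lower and 24 higher genes. The number of the 22 genes that differed between tumors and cultures was 5 to 9 with 1 library left out, and 5 without culture Control replicate 3. The replicate block gave 367 lower and 284 higher genes, of which 358 and 258 were among the main calls; same-numbered Control and Palbociclib tumors correlated at -0.128, 0.0128 and -0.0472, so the numbers do not pair the tumors. The cause of these changes was not tested beyond the smaller number of tumors in each fit that leaves 1 out. With 3 Control tumors, leaving 1 out leaves 2, and genes of a few CPM carry the widest errors.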

Other observations

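Of 34 lysosome and autophagy genes 4 were higher (11.8%, against 2.55% of all genes) and 0 lower, 9 without Palbociclib tumor 2 and 2 without Control tumor 3. NPC2, which exports cholesterol from lysosomes, was at 87.9, 93.7 and 89.7 CPM in Control and at 137, 184, 105, 136 and 134 CPM in Palbociclib tumors (log2 fold change 0.62, SE 0.116, adjusted p = 0.00184), without overlap. PSAP, the precursor of the saposins, rose by 0.35 (adjusted p = 0.00198). Of 31 tested genes among the 47 listed for drug and xenobiotic metabolism 4 were higher (12.9%), and 1 without Control tumor 2. ALDH1A3, a retinaldehyde dehydrogenase, was at 72.8, 71.3 and 87.9 CPM in Control and at 167, 157, 153, 170 and 150 CPM in Palbociclib tumors (log2 fold change 1.05, SE 0.131, adjusted p = 3.86e-05), all above Control. CYP24A1, which degrades vitamin D, rose by 0.80 and the transporter gene ABCC3 by 0.73 (adjusted p = 0.0119 and 0.00932), and both calls were lost without Control tumor 2.

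Of 29 p53 target genes 1 was higher and 1 lower, with a median of 0.02. TP53INP1, a p53-induced nuclear protein, rose by 0.35 (adjusted p = 0.0436), a call lost when Control tumor 1 or 2 or Palbociclib tumor 1, 2 or 5 was left out, and PPM1D, encoding a phosphatase that acts on p53, fell by 0.42 (adjusted p = 0.0112), a call lost without Control tumor 3. MDM2 was at -0.19 (adjusted p = 0.188). Of 31 hypoxia genes 1 was higher and 0 lower, and 3 were higher without Palbociclib tumor 2. VEGFA was at 0.02 (adjusted p = 0.974). Of 24 ATF4 stress response genes 1 was lower, PHGDH, the first enzyme of serine synthesis, which fell by 0.76 (adjusted p = 0.0168), a call lost without any 1 of the 3 Control tumors. Of 32 genes for MYC targets and ribosome biogenesis 1 was lower, ODC1, encoding ornithine decarboxylase, which fell by 0.33 (adjusted p = 0.0153), a call lost without Control tumor 2 or Control tumor 3. Of 19 genes for intestinal differentiation and WNT signalling 1 was lower, CA2, encoding carbonic anhydrase 2, which fell by 0.68 (adjusted p = 0.00859), a call lost without Control tumor 2.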
